A study of Mus musculus with 32 samples.

Results

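The complement components and regulators described here are 9 genes, C1qa, C1qb, C1qc, C1s1, Cfb, C7, C3ar1, Cfi and Serping1, out of 22180 genes measured in mouse kidney. They were taken by name, each from the array feature that names that gene alone and, where a gene has more than 1 such feature, from the brightest. Only C1s1 among them has more than 1 feature. The 9 were chosen with earlier results of these data known. Whole kidneys came from male mice of strain 129 that were either Col4a3–/– (KO) or littermate controls, Col4a3+/+ (WT), collected at 4 or 7 weeks of age, with 8 mice in each of the 4 groups. Each of the 32 mice gave 1 Affymetrix Mouse Gene 2.0 ST array, read as a log2 signal. No group received a treatment, and the labels do not say which stretch of Col4a3 is disrupted.

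Complement is a set of plasma and cell-surface proteins that marks surfaces for removal and can open pores in membranes. In the classical pathway C1q binds immune complexes or damaged surfaces and its partner proteases C1r and C1s cut the next components. The alternative pathway amplifies deposition with factor B, the terminal components assemble the membrane pore, and factor I and the C1 inhibitor hold the cascade in check. In kidney, tubule cells, fibroblasts and macrophages are known to make some of these components locally, beside the supply from liver by way of blood. Loss of Col4a3 removes the mature collagen IV network of the glomerular basement membrane and is a mouse model of Alport syndrome.

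Unless stated otherwise, a difference is a limma estimate on the log2 scale ± its standard error with 8 mice per group, a gene is called at an adjusted p below 0.05 (Benjamini-Hochberg over the 22180 genes), and levels are log2 signals, which are compared between groups for 1 gene and not between genes. Between genotypes, rose and fell mean higher or lower in KO than in WT mice of the same age, not a change with age. Arrays of a group correlated at 0.965 or more, and no 2 arrays were identical. Col4a3 itself, the targeted gene, was lower in KO mice by -0.99 ± 0.13 at 4 weeks (limma adjusted p = 8.75e-05) and -1.65 ± 0.13 at 7 weeks (adjusted p = 3.98e-12). The summed signal of 8 proximal tubule markers, the labelled tissue's main cell type, lay between 14.8 and 15.8 (log2) in all 32 mice. WT mouse 8 of 4 weeks stood apart from its group: it had the highest signal of the 8 in 6 of the 9 complement genes, and also the highest summed macrophage, T cell and fibroblast marker signals. WT mouse 5 had the highest signal in a further 2 of the 9, so some results that rest on the 4-week WT mice are also given without these 2 mice. They were set apart with earlier results of these data known. Their joint mean lies above that of the group in the genes described except Cfb. Singly, mouse 8 was below the group mean for Cfi (5.23 against 5.47) and mouse 5 for Serping1 (9.09 against 9.19). Leaving both mice out therefore raises KO minus WT at 4 weeks and 7 minus 4 weeks in WT mice by construction. For Cfb it lowers both. Such values are descriptions that support no call. KO mice 4 and 5 of 4 weeks had the lowest array weights of the 32, at 0.337 and 0.388.

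At 7 weeks 8 of the 9 genes rose in KO kidneys and none fell, against 15.6% of all genes called higher and 16.7% called lower (32.3% in all). The median difference of the 9 was 1.83, against -0.06 for all genes. Because the 9 were chosen with earlier results known, the shares of all genes, here and below, are a description and not a test. In 7 of them every KO mouse lay above every WT mouse, which was the case for 7.62% of all genes. C1qb and C3ar1 changed most, by 7.46-fold and 6.87-fold, while Cfb did not pass. Of the 9, 7 were called with a rise of at least 1.5-fold, as were 6.83% of all genes. At 4 weeks none of the 9 was called in limma, against 0.0406% of all genes (0.0316% higher and 0.00902% lower), none was without overlap, against 0.0271%, and 4 were higher and none lower at an unadjusted p below 0.05, where 937 of the 22180 genes were higher and 1107 lower. The array medians were 0.114 higher in KO than in WT mice at 7 weeks, so centring each array takes that much off every difference there. After centring, 8 of the 9 were still called, while of all genes called the share that was higher moved from 48.4% to 23.6%.

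**Figure D1:**
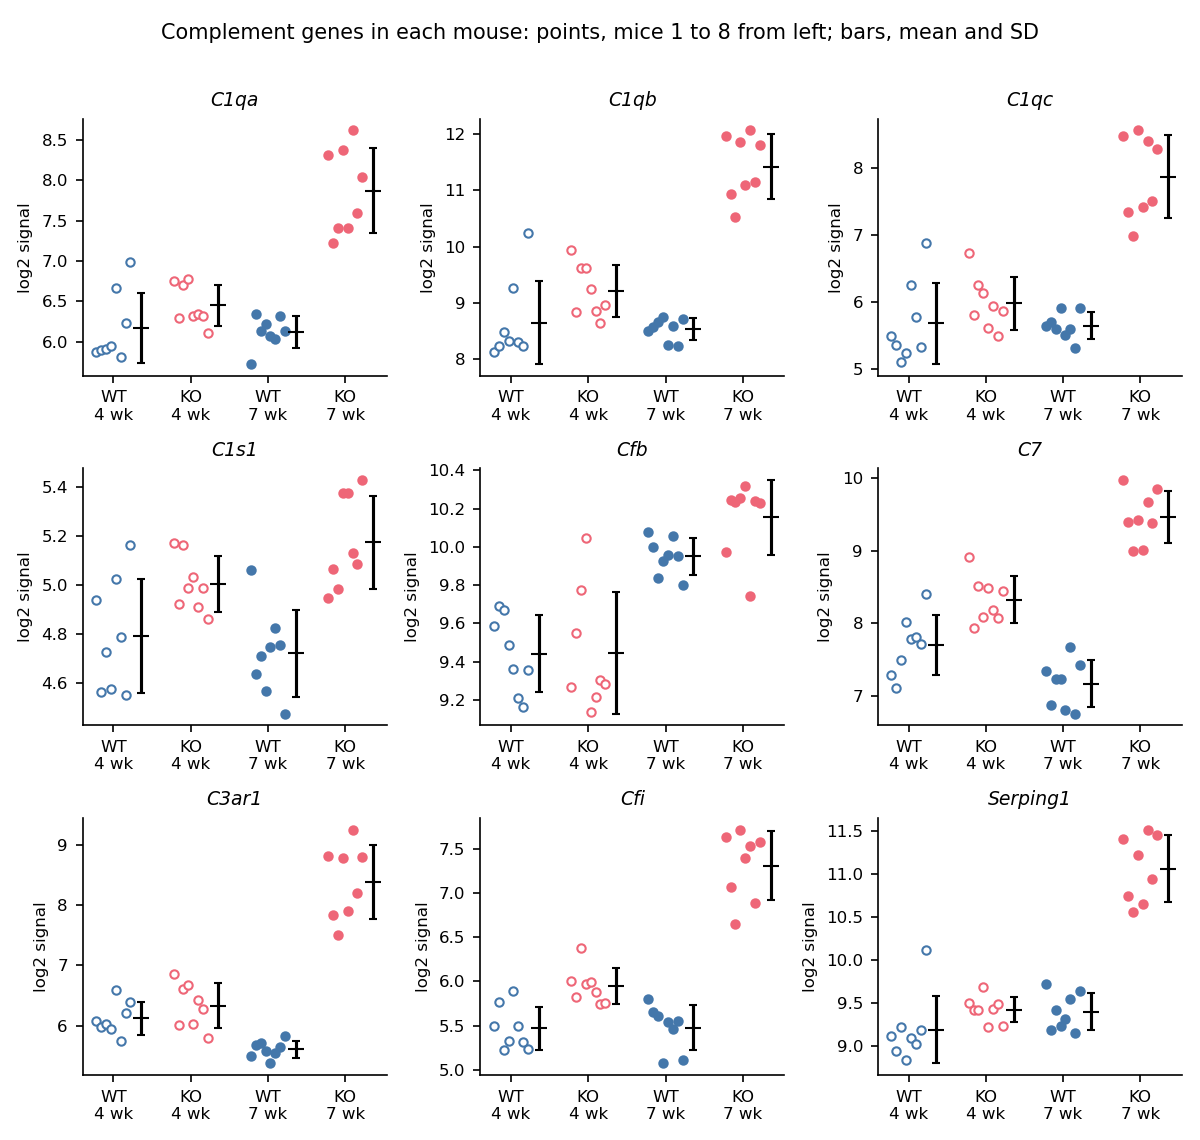
Log2 signal of the 9 complement genes (a panel each) in every mouse, with WT in blue, KO in red, 4 weeks as open and 7 weeks as filled points, and bars for the mean and SD of 8 mice. The 7-week KO mice lie apart from the other 3 groups in every panel except C1s1 and Cfb.

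C1qa, C1qb and C1qc encode the A, B and C chains of C1q, the recognition molecule of the classical pathway, which macrophages are known to make. The 3 genes are neighbours on chromosome 4 in RefSeq. The 250 bases before the RefSeq start sites of C1qb (chr4:136886201-136886450, GRCm38.p6, minus strand) and C1qc (chr4:136892915-136893164, minus strand) are shown because these neighbouring genes rose together, and no such sequence was used here for C1qa. Capitals mark matches to any of 6 motifs searched on both strands, and each sequence runs 5′ to 3′ on the gene's strand.

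C1qb: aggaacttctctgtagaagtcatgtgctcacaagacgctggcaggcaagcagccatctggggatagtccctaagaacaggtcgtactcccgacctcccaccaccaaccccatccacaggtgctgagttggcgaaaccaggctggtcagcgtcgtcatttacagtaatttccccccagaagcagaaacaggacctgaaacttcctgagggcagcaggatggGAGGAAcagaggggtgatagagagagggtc

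C1qc: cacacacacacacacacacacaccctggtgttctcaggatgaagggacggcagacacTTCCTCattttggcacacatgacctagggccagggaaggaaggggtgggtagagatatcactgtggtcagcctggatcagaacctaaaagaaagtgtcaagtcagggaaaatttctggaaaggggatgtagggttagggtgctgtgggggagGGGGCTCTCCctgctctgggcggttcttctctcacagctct

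The motifs were GAS (TTCNNNGAA), the ISRE core (by its name, a repeated GAAA), NF-kB (a 10-letter consensus), AP-1 (TGANTCA), the ETS/PU.1 core (GAGGAA) and C/EBP (TTGCNNAA). Both windows hold the ETS/PU.1 core, starting 30 bases before the start site in C1qb and, on the other strand, 193 bases before it in C1qc. C1qc holds an NF-kB match as well, the run GGGGCTCTCC. No motif match overlapped another in these windows. Of 32851 RefSeq windows of the same length, 23.3% hold the ETS/PU.1 core and 7.25% the NF-kB consensus, so a match is a description of the letters and not of a bound site.

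C1qb ranged from 8.24 to 8.75 in WT mice of 7 weeks, with a median of 8.58, and from 10.5 to 12.1 in KO mice, with a median of 11.5. The groups were separated by 1.77 log2 units with no mouse in between. The difference was 2.90 ± 0.25 (7.46-fold, limma adjusted p = 5.07e-11), and only 0.14% of genes had a higher one. C1qc ran from 5.31 to 5.91 (median 5.61) in WT and from 6.97 to 8.55 (median 7.89) in KO mice. It rose by 2.22 ± 0.23 (4.67-fold, adjusted p = 2.09e-09), again with no overlap. C1qa ran from 5.72 to 6.35 (median 6.13) in WT and from 7.22 to 8.62 (median 7.82) in KO mice, a rise of 1.75 ± 0.18 (3.37-fold, adjusted p = 1.84e-09). All 3 chains thus rose, and the difference between their folds was not tested.

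C1s1 encodes C1s, the protease that C1q sets off through C1r. Its signal ranged from 4.48 to 5.06 (median 4.73) in WT and from 4.95 to 5.43 (median 5.11) in KO mice of 7 weeks, so the groups overlapped, and 6 KO mice lay above every WT mouse. The difference of 0.45 ± 0.09 (1.37-fold, limma adjusted p = 0.00019) was called. Its other feature gave 1.08 ± 0.22 (2.11-fold, adjusted p = 0.000245), with an SD of 0.68 among the 7-week KO mice and 0.60 among the WT mice of that age. The features therefore share a direction and differ in size by more than 1.5 times. C1s1 lies in RefSeq beside its close relatives C1ra, C1rb and C1s2, and signal shared with them cannot be told apart in these values.

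Cfb encodes factor B, the protease of the alternative pathway. At 7 weeks it ranged from 9.80 to 10.1 (median 9.95) in WT and from 9.74 to 10.3 (median 10.2) in KO mice. Although 6 KO mice lay above every WT mouse, KO mouse 6 lay below all of them. The difference of 0.20 ± 0.11 (95% confidence interval -0.01 to 0.42, limma adjusted p = 0.148) did not pass. It passed in 2 of 10 alternatives other than single left-out mice. These were array weights (0.23, limma adjusted p = 0.0246) and a fit of the 7-week mice alone (adjusted p = 0.0448). Over the 10 the difference ran from 0.09, with centred arrays, to 0.23, and the adjusted p of limma reached 0.493. The interval of Cfb with all mice ends below those of the C1q chains, which start at 1.39 or higher.

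C7 encodes a terminal component that anchors the growing pore in the membrane. The 250 bases before its RefSeq start site (chr15:5063774-5064023, GRCm38.p6, minus strand) hold a single motif match, GAS, on the letters TTCCCAGAA, as 7.02% of windows do.

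C7: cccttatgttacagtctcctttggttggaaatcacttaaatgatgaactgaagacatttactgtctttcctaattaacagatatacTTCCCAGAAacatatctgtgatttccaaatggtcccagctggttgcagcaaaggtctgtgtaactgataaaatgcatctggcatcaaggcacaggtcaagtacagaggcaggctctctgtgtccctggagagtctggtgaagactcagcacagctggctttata

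C7 ranged from 6.76 to 7.67 (median 7.23) in WT and from 8.99 to 9.98 (median 9.41) in KO mice of 7 weeks, a gap of 1.32 with no overlap. It rose by 2.29 ± 0.17 (4.90-fold, limma adjusted p = 1.8e-12). Its level also differed between the ages in WT mice, as described below.

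C3ar1 encodes the receptor for the anaphylatoxin C3a, found on myeloid cells. Its window before the start site (chr6:122856158-122856407, GRCm38.p6, minus strand) holds an AP-1 match, TGACTCA, 22 bases before the start, a motif present in 6.75% of windows.

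C3ar1: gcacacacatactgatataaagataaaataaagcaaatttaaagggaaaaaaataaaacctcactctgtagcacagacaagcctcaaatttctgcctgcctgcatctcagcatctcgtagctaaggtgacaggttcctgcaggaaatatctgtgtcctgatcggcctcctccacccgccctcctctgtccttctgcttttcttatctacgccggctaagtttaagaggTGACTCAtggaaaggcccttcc

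C3ar1 ranged from 5.37 to 5.84 (median 5.62) in WT and from 7.5 to 9.25 (median 8.49) in KO mice of 7 weeks. It had a gap of 1.67 between the groups and rose by 2.78 ± 0.18 (6.87-fold, limma adjusted p = 2.36e-13), the smallest adjusted p of the 9. The spread among the KO mice was wide, with an SD of 0.61 against 0.14 in WT mice.

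The regulators Cfi and Serping1 rose as well. Cfi encodes factor I, a plasma protease that inactivates the opsonins of the cascade, and ranged from 5.07 to 5.81 (median 5.55) in WT and from 6.65 to 7.72 (median 7.46) in KO mice. The rise was 1.83 ± 0.14 (3.56-fold, limma adjusted p = 2.25e-12). Serping1 encodes the C1 inhibitor, a serpin that blocks C1r and C1s. Its signal ranged from 9.15 to 9.72 (median 9.36) in WT and from 10.6 to 11.5 (median 11.1) in KO mice, a rise of 1.66 ± 0.15 (3.17-fold, adjusted p = 7.5e-11). Neither gene had a KO mouse within the WT range.

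**Figure D2:**
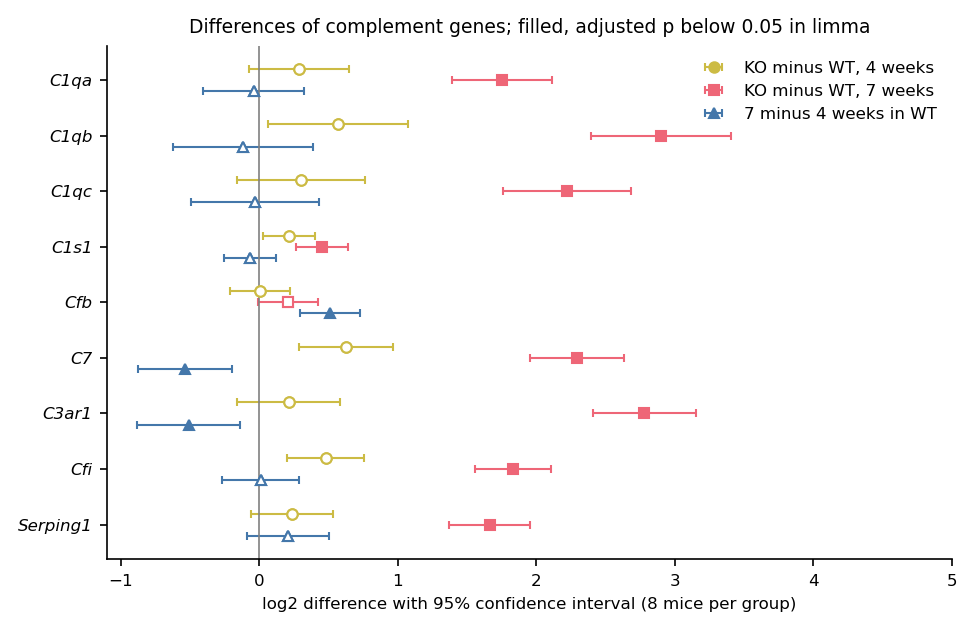
Differences in log2 signal of the 9 genes, with 95% confidence intervals, for KO minus WT at 4 weeks (circles), KO minus WT at 7 weeks (squares) and 7 minus 4 weeks in WT mice (triangles), 8 mice per group. Filled symbols were called: C1s1 at 0.45 and 7 genes between 1.66 and 2.90 at 7 weeks, none at 4 weeks, and Cfb, C7 and C3ar1 between the ages in WT mice.

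At 4 weeks all 9 differences were above 0, between 0.0044 for Cfb and 0.62 for C7, with a median of 0.29 against -0.005 for all genes, and none was called. C7 had the largest, at 0.62 ± 0.17 (1.54-fold, limma adjusted p = 0.191): it ranged from 7.11 to 8.41 (median 7.75) in WT and from 7.93 to 8.91 (median 8.31) in KO mice, with 4 KO mice above every WT mouse. Cfi stood at 0.48 ± 0.14 (adjusted p = 0.244), with 4 KO mice above the WT range of 5.23 to 5.89. C1qb stood at 0.56 ± 0.25 (adjusted p = 0.486). Its 8 WT mice ran from 8.11 to 10.3 around a median of 8.31, and both mouse 8, the highest, and mouse 5, at 9.26, lay above the KO median of 9.10. The sign of Cfb was not settled: its difference of 0.0044 ± 0.11 turned to -0.012 after centring the arrays and to -0.046 with array weights. Without WT mice 5 and 8 the differences stood at 0.93 for C1qb, 0.76 for C7, 0.60 for C1qc, 0.51 for C1qa and 0.37 for Serping1, while that of Cfb turned negative. Summed fibroblast and pericyte markers had medians of 11.7 in WT and 12.0 in KO mice of this age (ranges 11.5 to 11.9 and 11.8 to 12.3), and macrophage markers 10.8 and 11.0. None of the 8 fibroblast or 10 macrophage markers was called at 4 weeks, and their part in the complement values was not tested.

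The effect of genotype was larger at 7 than at 4 weeks for 7 of the 9 genes, by the interaction test over all mice, against 9.80% of all genes called higher and 7.24% called lower (17.0% in all). With centred arrays the share of called genes that were higher went from 57.5% to 33.2%, and 7 of the 9 were still called. C3ar1 had the largest increase in effect, 2.57 ± 0.26 (limma adjusted p = 1.14e-07), followed by C1qb at 2.33 ± 0.35 (adjusted p = 1.69e-05) and C1qc at 1.92 ± 0.32 (adjusted p = 6.68e-05). C1s1 (0.24 ± 0.13, adjusted p = 0.224) and Cfb (0.20 ± 0.15, adjusted p = 0.412) did not pass. Without WT mice 5 and 8 of 4 weeks the increases were smaller for the C1q chains, at 1.96 for C1qb, 1.63 for C1qc and 1.25 for C1qa. In that setting 7 of the 9 were called as well.

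In WT kidneys, from different mice at each age, 1 of the 9 genes rose from 4 to 7 weeks and 2 fell. Of all genes 15.4% rose and 14.1% fell (29.5% in all). Cfb rose by 0.51 ± 0.11 (1.42-fold, limma adjusted p = 0.000404), from a range of 9.17 to 9.69 to one of 9.80 to 10.1, so that every 7-week WT mouse lay above every 4-week one, as for 7.38% of all genes. C7 fell, by -0.54 ± 0.17 (adjusted p = 0.014), and C3ar1 by -0.51 ± 0.18 (adjusted p = 0.032). For C3ar1, 7 of the 8 older mice lay below every younger one. Without WT mice 5 and 8 of 4 weeks, C7 stood at -0.40 and C3ar1 at -0.39. With 1 mouse left out at a time, C3ar1 missed the threshold without 4-week mouse 5 (adjusted p = 0.0771), 7 (0.0503) or 8 (0.0605) or 7-week mouse 1 (0.0504) or 5 (0.0605). Serping1, at 0.21 ± 0.15 with all mice (adjusted p = 0.317), was called without 4-week mouse 8 (0.34, adjusted p = 0.0355). The C1q chains lay between -0.12 and -0.03, and these turned above 0 without WT mouse 8.

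In KO kidneys 8 of the 9 rose from 4 to 7 weeks, against 21.4% of all genes called higher and 21.3% called lower (42.6% in all). With centred arrays 8 were called, and the share of called genes that were higher went from 50.1% to 35.1%. This comparison shares its 7-week KO mice with the genotype comparison of that age. The changes were 2.21 ± 0.25 for C1qb, 2.06 ± 0.18 for C3ar1, 1.89 ± 0.23 for C1qc, 1.64 ± 0.15 for Serping1, 1.42 ± 0.18 for C1qa, 1.36 ± 0.14 for Cfi, 1.13 ± 0.17 for C7 and 0.71 ± 0.11 for Cfb (limma adjusted p between 1.99e-10 and 1.98e-06). In 7 of them, all except C1s1 and Cfb, the older KO mice lay wholly above the younger ones, as for 6.89% of all genes. C1s1 stood at 0.17 ± 0.09 (adjusted p = 0.138) and at 0.87 ± 0.22 on its other feature (adjusted p = 0.00182). Cfb rose in both genotypes, by 0.51 in WT and 0.71 in KO mice, and was the only member called higher in WT mice.

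The order of the 4 groups was thus alike for most of the genes. The 7-week KO mice were highest for all 9, and for the 7 without overlap they stood clear of the 4-week KO mice, next in order. The lower neighbours overlapped in range for every gene. For C1qa, C1qb, C1qc, C1s1, C7 and C3ar1 the order was 7-week WT, 4-week WT, 4-week KO, 7-week KO. For Cfi and Serping1 the WT ages changed places, and Cfb followed age, with both 4-week groups (means 9.44 and 9.45) below both 7-week groups (9.95 and 10.2).

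Beyond the 9, the complement system was covered by 43 of 48 further genes listed by role, and the other 5 were not analysed here. At 7 weeks 19 of the 43 rose and 4 fell in KO mice, against 15.6% of all genes called higher and 16.7% called lower. Their median difference was 0.17, against -0.06 for all genes. At 4 weeks none of the 43 was called in limma, with 2 higher and 2 lower at an unadjusted p below 0.05, a share near that of all genes (937 higher and 1107 lower of 22180). The interaction was called for 12 higher and 1 lower, against 9.80% and 7.24% of all genes. The 7-week shares of all genes also stand beside the counts by role that follow.

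Among recognition molecules and initiating proteases 4 of 11 rose and none fell. They were the scavenger collectin Colec12 (1.55 ± 0.13, limma adjusted p = 1.74e-11), the lectin pathway protease Masp1 (0.97 ± 0.14), the C1r gene C1ra (0.36 ± 0.11) and the mannose-binding lectin Mbl1 (0.44 ± 0.16, adjusted p = 0.0272). Of those not called, the ficolin Fcnb (-0.17 ± 0.10) and Colec11 (-0.09 ± 0.13) lay farthest from 0. Central and alternative pathway components rose in 4 of 5 cases. C4b, the classical component C4, rose by 2.82 ± 0.33 (7.07-fold, adjusted p = 3.18e-08) and Hc, which encodes C5, by 2.54 ± 0.20 (5.83-fold, adjusted p = 1.3e-11). Properdin, Cfp, which stabilises the alternative pathway enzyme, rose by 1.55 ± 0.13. C2, the neighbour of Cfb in RefSeq, rose by 0.61 ± 0.16 (adjusted p = 0.00337). C4a stood at -0.17 ± 0.25, and since C4a and C4b are near-identical copies their signals may be shared.

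Terminal components parted in direction. C6, the neighbour of C7 in RefSeq, rose by 0.73 ± 0.13 (limma adjusted p = 3.84e-05), while C8a (-1.15 ± 0.24, adjusted p = 0.000208) and C8g (-0.86 ± 0.17, adjusted p = 0.000181), which encode chains of C8, fell. C9 (0.17 ± 0.10) and C8b (-0.07 ± 0.10) did not pass. Of 6 fluid-phase regulators 4 rose: clusterin, Clu (1.27 ± 0.13, adjusted p = 1.16e-09), the carboxypeptidase N subunits Cpn1 (1.27 ± 0.45) and Cpn2 (0.41 ± 0.11), and the C4b-binding protein C4bp (0.33 ± 0.11). Vtn (-0.05 ± 0.08) and Cfhr2 (-0.12 ± 0.23) did not pass.

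Membrane regulators protect a cell's own surface. Of 8, Csmd1 rose (0.28 ± 0.09) and Cd55, decay-accelerating factor (-0.41 ± 0.12, limma adjusted p = 0.00753), and Susd4 (-0.30 ± 0.09) fell, with a median of -0.04. These counts are near the shares of all genes, 15.6% called higher and 16.7% called lower. Between the ages, 4 of the 8 fell in WT mice, Cd46 (-0.59 ± 0.10), Cd59a (-0.48 ± 0.09), Cd59b (-0.60 ± 0.12) and Cr1l (-0.30 ± 0.08), and each of these fell in KO mice too (-0.71, -0.32, -0.30 and -0.36). Of all genes 14.1% were called lower between the ages in WT mice and 21.3% in KO mice. Of 8 receptors 5 rose, led by the integrin subunits of the complement receptors CR3 and CR4, Itgax (2.40 ± 0.16, 5.27-fold), Itgb2 (2.09 ± 0.20) and Itgam (1.83 ± 0.15), and by the C5a receptor C5ar1 (0.83 ± 0.14, adjusted p = 2.32e-05). Cd93 (0.23 ± 0.10) and Cr2 (-0.11 ± 0.09) did not pass.

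**Figure D3:**
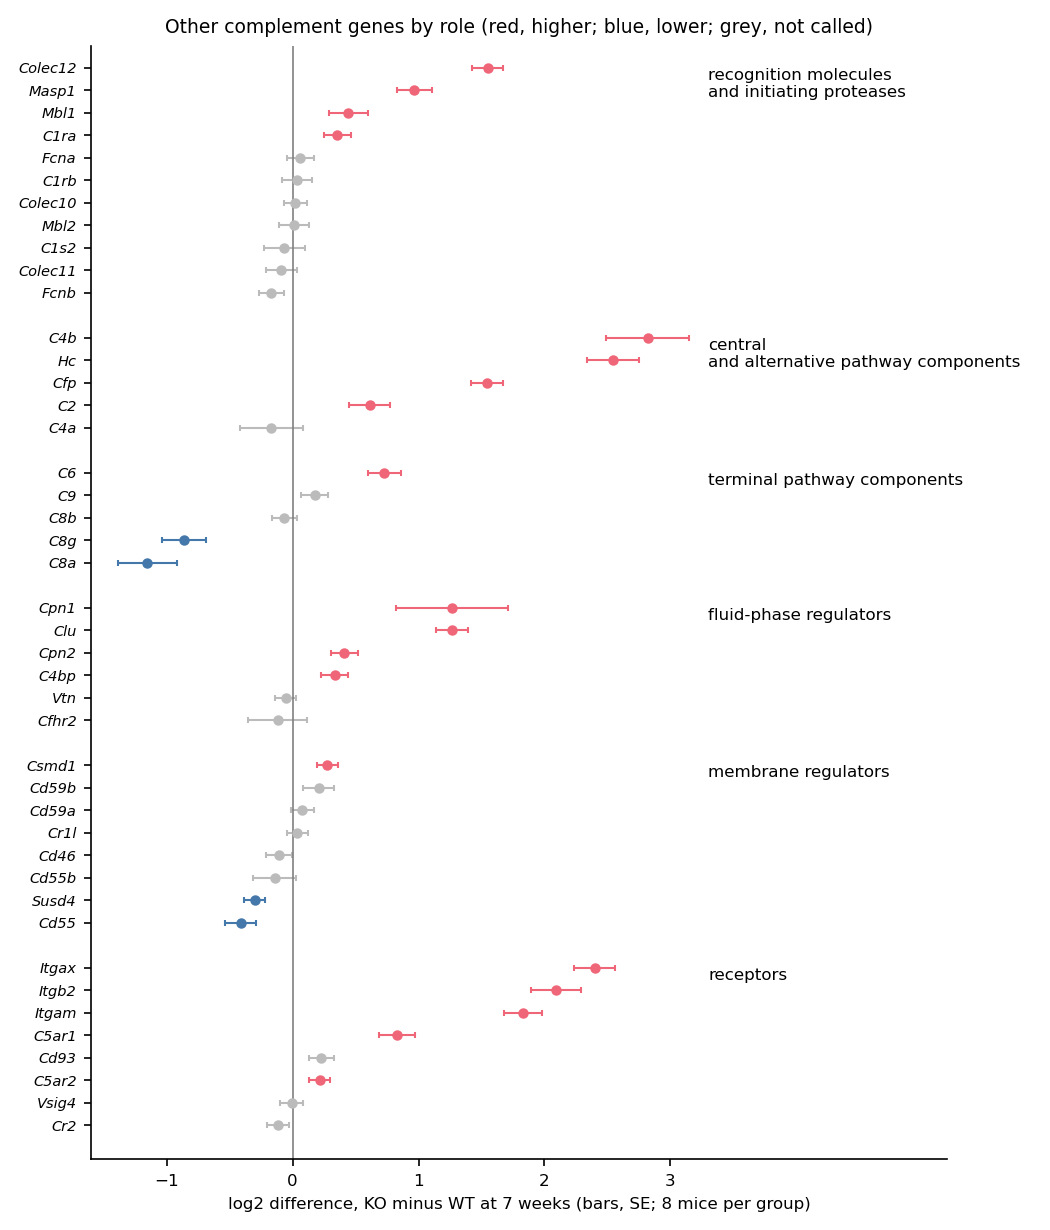
Difference in log2 signal between KO and WT kidneys at 7 weeks, with its SE (8 mice per group), for the 43 other complement genes by role. Red points were called higher (19), blue points lower (4) and grey points not called (20); C4b at 2.82 is the highest and C8a at -1.15 the lowest.

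The SD among the 7-week KO mice was larger than among the WT mice of that age in all 9 genes, but it was the largest of the 4 groups only for C1qa, C1qc, Cfi and C3ar1. For C1qb the 4-week WT mice, with mouse 8, spread more (SD 0.742 against 0.572). The SD of C1qc was 0.62 in these 8 mice, above that of 99.1% of all genes, and that of C3ar1 0.61 (99.0%), against 0.20 and 0.14 in WT mice of that age. The variation ran across genes together. Mice 1, 4, 6 and 8 were among the 4 highest of the group in 7, 9, 8 and 8 of the 9 genes, and mice 2, 3, 5 and 7 in 1, 0, 2 and 1. Mouse 3 was the lowest in 6 of the 9. Cfb went another way: its lowest values were in mouse 6 (9.74) and mouse 1 (9.97), which were among the highest for the C1q chains, and the other 6 lay between 10.2 and 10.3.

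**Figure D4:**
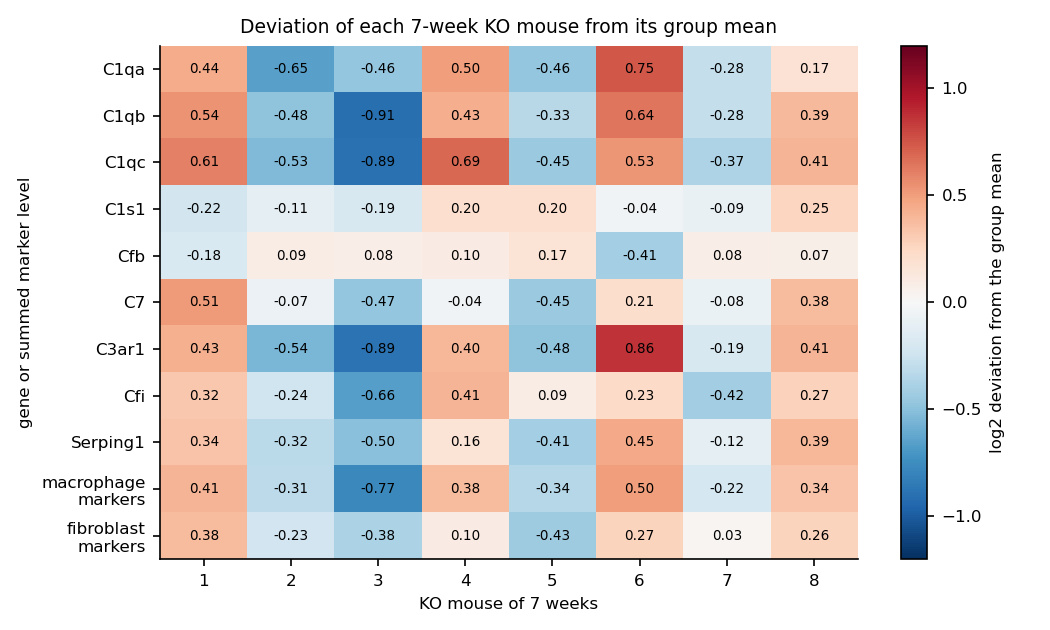
Deviation of each of the 8 KO mice of 7 weeks (columns) from the group mean, in log2 units, for the 9 complement genes and for the summed signals of 10 macrophage and 8 fibroblast and pericyte markers (rows). Mice 1, 4, 6 and 8 are above the mean for C1qa, C1qb, C1qc, C3ar1, Cfi, Serping1 and both marker sums; mouse 3 is below it in every row except Cfb.

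Markers of other cells moved with these results. In bulk tissue, more cells of a type and more RNA per cell cannot be told apart. At 7 weeks 15.6% of all genes were called higher in KO mice and 16.7% lower. Of 10 macrophage markers 9 rose at 7 weeks and 1, Mertk (-0.41 ± 0.10), fell, with Cd68 at 2.64 ± 0.19 (limma adjusted p = 1.15e-12) and Cd14 at 3.56 ± 0.26. Their summed signal ran from 10.9 to 11.2 (log2) in WT and from 11.9 to 13.2 in KO mice of 7 weeks. All 8 fibroblast and pericyte markers rose, among them the collagens Col1a2 (1.71 ± 0.11) and Col3a1 (2.07 ± 0.14), with sums of 11.1 to 11.6 in WT and 12.3 to 13.1 in KO mice. The 4 KO mice with the highest macrophage sums and the 4 with the highest fibroblast sums were mice 1, 4, 6 and 8. These mice also had the 4 highest T cell and neutrophil sums, though not the 4 highest B cell sums, and the 4 lowest proximal tubule sums. Their array medians were the highest of the group too, at 6.34 to 6.37 against 6.28 to 6.32. The ranking is thus not particular to macrophage and fibroblast markers. All 8 proximal tubule markers were lower in KO than in WT mice of 7 weeks, with a median of -0.42. From 4 to 7 weeks their median change was 0.49 in WT and 0.08 in KO mice. Of 6 liver markers 3 fell and none rose, with albumin, Alb, at -1.24 ± 0.18. T cell markers rose in 4 of 5 cases, with sums of 7.48 to 7.75 and 8.14 to 9.19. The part of these cells in the complement values was not tested.

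Genes with the most similar course over the 32 mice were found by the root mean square difference after each gene was centred on its own mean. That mean was taken over all groups, so likeness includes the differences between groups and is not variation between mice of a group alone. For C1qb they were Fcer1g, an Fc receptor chain (0.23 log2 units), Mpeg1, a macrophage pore protein (0.23) and the cathepsin Ctss (0.24), against 1.27 for the variation of C1qb itself. For C1qc they were Cybb, a subunit of the phagocyte oxidase (0.21), Adgre1, the macrophage marker F4/80 (0.22), and Alox5ap (0.22), and for C1qa Fxyd5 (0.19), AB124611 (0.21) and Apobec1 (0.22). Adgre1 (0.28) was also the nearest to C3ar1, followed by the chemokine Ccl7 (0.29) and Fcer1g (0.29). The nearest to C7 were Kdelr3 (0.29), the mesenchymal cadherin Cdh11 (0.30) and the oncostatin M receptor Osmr (0.30), to Cfi Klf6 (0.23), Vtcn1 (0.25) and Dock10 (0.25), and to Serping1 Pdlim1 (0.18), Axl (0.19) and Slc11a1 (0.21). Cfb, whose own variation was 0.37, ran nearest to Sqstm1, an autophagy receptor (0.15), the lysosomal enzyme Ctsa (0.16) and Tmem214 (0.16). The distance is not scaled by a gene's own variation, so its size does not rank likeness between members. For C1s1, whose own variation was 0.25, the nearest were Ctsl (0.16), Cbfb (0.17) and C9orf72 (0.17).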

How the data were processed

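Kidney RNA of 32 mice was measured on 1 array each. Per the labels, the deposited numbers are RMA expression summaries for each gene on a log2 scale, and per the submitters' processing notes they were made in Affymetrix Expression Console, with no version stated. Scanner output was not analysed here. All columns were matched to a mouse by its accession, and genotype, age and mouse number come from the sample titles.

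Of 41345 features 23521 name 1 gene symbol, 1814 several and 16010 none in the platform annotation. Features naming 1 symbol were kept, the brightest per symbol, without a filter on low values or a pseudocount. This gave 22180 genes, 21994 of them matched to RefSeq by Entrez number. A linear model with a mean per group (28 residual degrees of freedom) was fitted with limma 3.58.1 in R 4.3.3, with moderated variances, and checked on simulated data. Each of 5 contrasts was tested two-sided, with confidence intervals at 95%. The number of arrays limits the precision. The p-values weigh a difference between group means against the spread among mice within groups. Which mice were littermates is not stated, so litters were not modelled.

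The members, the gene lists and the alternatives were chosen with earlier results of these data known. All 9 genes are named in every comparison. From each list of other complement genes up to 4 called members with the smallest p and up to 2 uncalled ones with the largest difference could be named, from marker lists 2 each, and per member its 3 nearest genes. Mertk was named after its values were seen. Marker lists for neutrophils, B cells, thick ascending limb, collecting duct, podocytes and endothelium were counted too: at 7 weeks 2 of 7, 2 of 5, 1 of 5, 0 of 6, 0 of 4 and 0 of 6 rose and 1, 0, 1, 3, 0 and 3 fell. Of all genes 15.6% were called higher and 16.7% lower in that comparison. Summed marker signals are log2 of the sum of linear signals. Sequences come from RefSeq (GRCm38.p6), with 5 of the 9 members found; only the 250 bases before the start were searched. A planned look at proteins was not run. Alternatives were a mouse-number block, median-centred arrays, array weights, a variance trend, 2-group fits, a level filter, the mean of all features and left-out mice. Same-numbered mice of different groups correlated at a median of 0.025 in their deviations (9 of 48 pairs over 0.1), and the mice were treated as unpaired. What the numbers mean is not stated, and a low correlation cannot exclude shared litters.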

Additional observations from a re-analysis of the deposited data

Results flagged for a closer look

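For 7 genes the effect of genotype differed between 4 and 7 weeks in the interaction test of limma. The increases were 1.47 ± 0.25 for C1qa (adjusted p = 9.4e-05), 2.33 for C1qb, 1.92 for C1qc, 1.67 ± 0.24 for C7 (adjusted p = 7.02e-06), 1.35 ± 0.19 for Cfi (adjusted p = 6.99e-06), 2.57 for C3ar1 and 1.43 ± 0.21 for Serping1 (adjusted p = 8.31e-06). In each of the 7 all 8 KO mice of 7 weeks lay above all 8 WT mice of that age.

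A single mouse stood far from its group in 2 of 36 combinations of gene and group, where chance alone marks about 1 in 20. Serping1 in WT mouse 8 of 4 weeks was 10.1, with the next mouse at 9.22, a gap of 0.702 of the range of the group. Cfi in KO mouse 3 of 4 weeks was 6.38, with the next mouse at 6.00, a gap of 0.597 of the range. The limit for 8 mice is 0.526.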

How the results depend on the processing

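The counts of complement genes called kept within 1.5 times under every alternative run, with 1 exception. Without WT mice 5 and 8 of 4 weeks, 2 of the 9 were called between genotypes at 4 weeks in place of 0, and 1 in place of 3 between the ages in WT mice. These mice were set apart with earlier results known and hold the highest values of the group in 8 of the 9 genes, so the shift follows from leaving them out and supports no call. Leaving out 1 mouse at a time left 0 called at 4 weeks, 8 at 7 weeks, 7 in the interaction, 8 between the ages in KO mice and 2 to 3 in WT mice. Over all genes the 4-week count of 9 ran from 3 to 24 with 1 mouse left out. It was 5 with array weights, 1 in a fit of the 4-week mice alone, 17 among genes above the median level, 72 without WT mice 5 and 8 and 1 without KO mice 4 and 5, a setting chosen after seeing the data. Centring the arrays raised the 7-week count of all genes from 7167 to 10892.

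Differences near 0 changed sign. Cfb at 4 weeks was -0.012 with centred arrays, -0.046 with array weights, -0.022 without WT mice 5 and 8 and -0.044 without KO mice 4 and 5, and ran from -0.081 to 0.049 with 1 mouse left out. Between the ages in WT mice C1qa was 0.032 and C1qc 0.085 with array weights, and C1qa was 0.18, C1qb 0.25, C1qc 0.26 and C1s1 0.032 without mice 5 and 8. C1s1 was 0.069 with the mean of its features and 0.21 on its other feature, the latter chosen after seeing the data. With 1 mouse left out C1qa ran from -0.093 to 0.075, C1qb from -0.20 to 0.11, C1qc from -0.12 to 0.14 and Cfi from -0.038 to 0.069. The cause was not tested.

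With the mouse number as a replicate block, 0 of the 9 were called at 4 weeks, 8 at 7 weeks and 7 in the interaction. Between the ages 3 were called in WT and 8 in KO mice. The block changed no call of a complement gene. Of 96 mouse and group combinations, each with 8 mice to match, 17 matched best with their own number. That count was not tested and cannot exclude shared litters. C1s1 and Cfi lay below the median signal of all genes and drop out under the level filter.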
